A study of Homo sapiens with 2 samples.

Results

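Messenger RNA of the kinase mTOR and its complex partners, of the S6 kinases that mTOR switches on, and of the energy sensor AMPK was examined in AsPC-1 cells after PGR siRNA. The 10 genes were taken by name, MTOR, RPTOR, RICTOR, MLST8, DEPTOR, RPS6KB1, RPS6KB2, PRKAA1, PRKAB1 and PRKAG1, out of 19775 genes on the arrays, and all 10 had a probe set annotated to that gene alone, 22 probe sets in total. AsPC-1 is an established human PDAC cell line. The cells were transfected with siRNA against PGR, the progesterone receptor, or with negative control siRNA, and each condition had 1 array, with no replicate. The sample labels name DMEM with 10% fetal bovine serum as the medium, whereas the methods keep AsPC-1 in an RPMI medium. The study asked which genes differ between PGR-interference and control cells, and mTORC1 signalling is among the gene sets it examined.

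mTOR works in 2 complexes. In mTORC1 the scaffold RPTOR presents substrates such as the S6 kinases, which then promote translation and cell growth when amino acids are plentiful, and in mTORC2 the scaffold RICTOR directs mTOR to kinases such as AKT. AMPK is a trimer of a catalytic α, a scaffolding β and a nucleotide-binding γ subunit, is switched on when ATP runs low, and restrains mTORC1 by phosphorylating RPTOR and TSC2. Amino acids that tumor cells recover from protein taken up by macropinocytosis feed into the same nutrient sensing. Much of the control of these proteins lies in phosphorylation and in their location on the lysosome, which an mRNA array does not read.

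The agent that separates the arrays is a small duplex, and its guide strands are shown because they define the comparison. Both PGR siRNAs of the study are shown, since no source read here says which of them was put on the arrayed cells. The antisense strands are printed 5′ to 3′ with bases 2 to 8, the seed, in capitals.
si-PGR-1: uUGCCUCAaaccaauugcctt
si-PGR-2: uCUUGGGUaauugugcagctt
The seeds of the strands differ.

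PGR itself does not settle which array is which. Its probe sets read 73.3 and 4.80 on the array labelled as PGR siRNA (the labelled si-PGR array), against 16.1 and 1.53 on the labelled control array. All of these lie below the signal floor of 97.9, the median intensity of all named probe sets, and their order goes against the labels, so each array is named by its label and every direction below rests on those labels. Of 8 ductal and epithelial markers 7 reached the floor by their mean, whereas 3 of 15 markers of leukocytes, endothelium, fibroblasts, acinar and endocrine cells did, the brightest of them at an intensity of 299. Among those 7 only KRT7 and MUC1 were dimmer than that, at 182 and 174 on the labelled si-PGR array and 189 and 122 on the labelled control array. Differences are log2(intensity + 1), labelled si-PGR minus labelled control, and 1.5-fold was used as a rule of size. In bulk RNA, fewer cells with a transcript and less of it per cell cannot be told apart.

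All 10 genes reached the floor with their brightest probe set by the mean of both arrays. RPTOR was at least 1.5-fold higher on the labelled si-PGR array, PRKAA1 was at least 1.5-fold lower, and the other 8 lay within 1.5-fold. The shares among 11124 genes past the floor were 2.45% at least 1.5-fold higher and 3.03% lower by that much. Of the genes past 1.5-fold 44.7% were thus higher, and 59.5% with median centring of the arrays. The median of the 10 genes was 0.15 on the log2 scale, with 7 above 0, against a median of 0.02 over all genes past the floor, of which 53.8% were above 0. Of the 22 probe sets 18 reached the floor. A 1.5-fold difference was reached upward by 1 of these and downward by 1, where the shares over all probe sets past the floor were 2.99% and 4.19%. The upward count of genes and that of probe sets are both RPTOR. It reached the floor by its mean only through its labelled si-PGR value, so the upward counts are not read against these shares. With a single array per condition there is no error between cultures, so none of these differences could be tested.

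**Figure D1:**
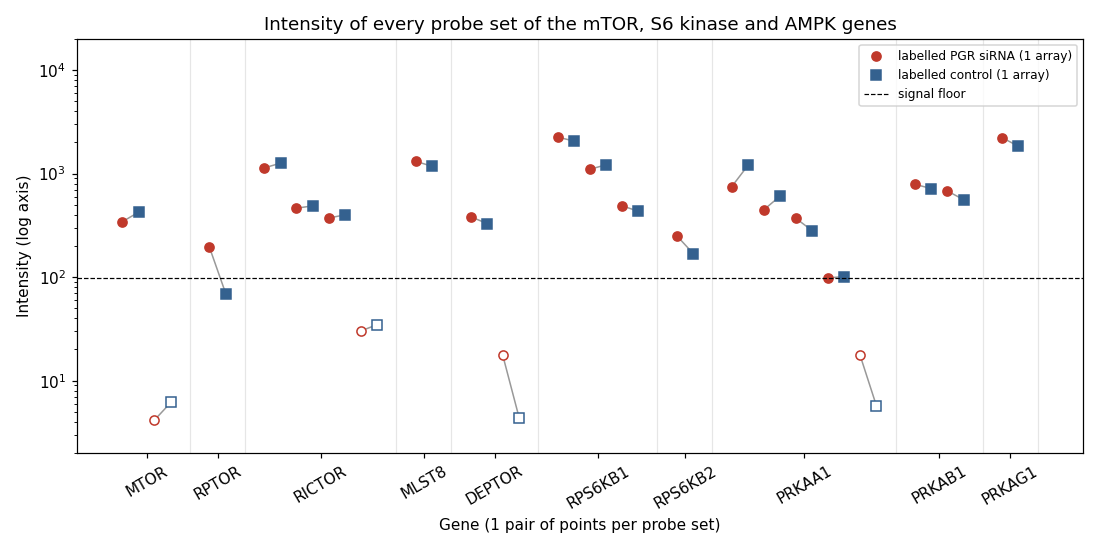
Intensity (log axis) of every probe set of the 10 genes, with the labelled si-PGR array as a circle left of the labelled control array as a square, and the signal floor as a dashed line. Open symbols have a mean signal below the floor; RPTOR is the only gene whose filled pair crosses it, with 194 on the labelled si-PGR array and 68.6 on the labelled control array.

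RPTOR, the scaffold of mTORC1, was the 1 mTOR complex subunit of the 10 genes past 1.5-fold. Its only probe set read 194 on the labelled si-PGR array and 68.6 on the labelled control array, a log2 difference of 1.49. The value labelled control lies below the floor, so this is no exact size, and with that value raised to the floor RPTOR was at least 1.98-fold higher. It reached the floor by its mean through the labelled si-PGR value, so its size is read against no other gene. In the lowest 10% of genes past the floor by mean signal, 10.2% of 1113 genes were higher by at least 1.5-fold, a share that describes dim genes on these arrays. RPTOR is in that band through its labelled si-PGR value, so nothing is read for RPTOR from the share. No second probe set was there to compare, and RPTOR drops out where both values must reach the floor.

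MTOR, the kinase of both complexes, read 343 on the labelled si-PGR array and 425 on the labelled control array, a difference of -0.31. Its other probe set, at 4.16 on the labelled si-PGR array and 6.18 on the labelled control array, is far below the floor. The reading of MTOR therefore rests on 1 probe set, slightly lower on the labelled si-PGR array.

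RICTOR, the scaffold of mTORC2, had the narrowest range among the 4 genes with several probe sets past the floor. Its brightest probe set read 1136 on the labelled si-PGR array and 1264 on the labelled control array, the second 464 on the labelled si-PGR array and 488 on the labelled control array, and the third 372 on the labelled si-PGR array and 399 on the labelled control array. The differences were -0.15, -0.07 and -0.10, all of the same sign within a range of 0.08. Of 1386 genes with 3 probe sets past the floor, 95.3% had a range at least as wide. The probe set of RICTOR below the floor, at 30.2 on the labelled si-PGR array and 34.7 on the labelled control array, gave -0.20. RICTOR was slightly lower on the labelled si-PGR array in each of its 3 probe sets past the floor. With median centring these gave -0.09, -0.0067 and -0.03, so the size of the difference depends on the scaling.

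MLST8, a subunit that binds the mTOR kinase domain in both complexes, read 1315 on the labelled si-PGR array and 1175 on the labelled control array, a difference of 0.16 from a single probe set marked in its ID for sequence shared between transcripts or genes. DEPTOR, an inhibitory partner of mTOR, read 383 on the labelled si-PGR array and 329 on the labelled control array, a difference of 0.22. Its other probe set gave 1.80, but from intensities of 17.8 on the labelled si-PGR array and 4.39 on the labelled control array, far below the floor. Among all probe sets below the floor the 1.5-fold mark was passed upward by 28.6% and downward by 33.7%. Averaging both probe sets gave 1.01 for DEPTOR, which comes from the dim one.

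The S6 kinases are encoded by a pair of paralogs. RPS6KB1, which encodes S6K1, read 2253 with its brightest probe set on the labelled si-PGR array and 2058 on the labelled control array, a difference of 0.13. The second probe set read 1101 on the labelled si-PGR array and 1214 on the labelled control array, and the third 490 on the labelled si-PGR array and 433 on the labelled control array. These gave -0.14 and 0.18, so the 3 probe sets differed in sign within a range of 0.32, and 60.0% of genes with 3 probe sets past the floor had a range at least as wide. The third is marked for shared sequence. No direction can be read for RPS6KB1.

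RPS6KB2, which encodes S6K2, read 251 on the labelled si-PGR array and 169 on the labelled control array, a difference of 0.57 or 1.48-fold, just inside 1.5-fold. It has 1 probe set, marked for shared sequence, and a signal in the lowest of 3 equal parts of the genes past the floor, where 6.26% were at least 1.5-fold higher. Quantile normalization gave 0.59, loess 0.60 and median centring 0.64 for RPS6KB2, all past 1.5-fold, and an offset of 16 gave 0.53. Both of its values lie above the floor, whereas the value of RPTOR labelled control does not.

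**Figure D2:**
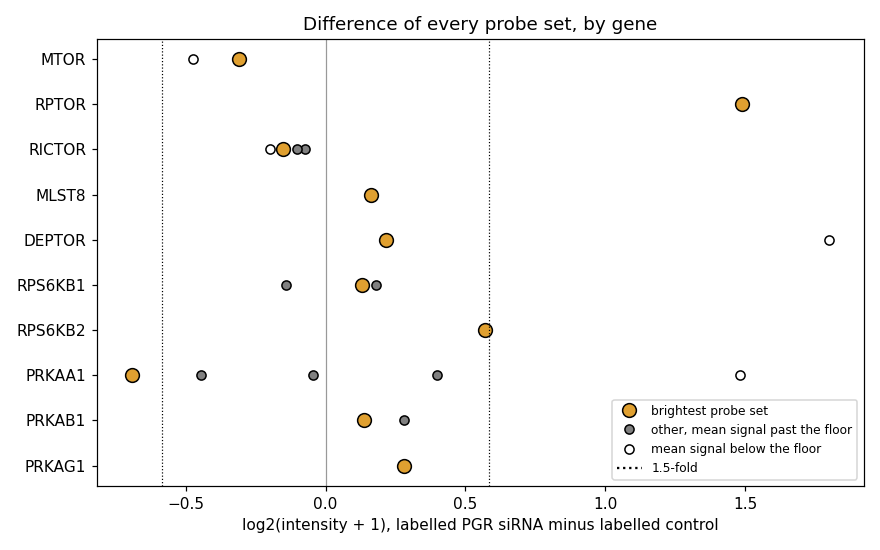
Log2 difference (labelled si-PGR array minus labelled control array) of each probe set by gene, with 1.5-fold as dotted lines, the brightest probe set of each gene in orange and probe sets below the floor open. RICTOR and PRKAB1 are tight, PRKAA1 spreads from -0.69 to 0.40 among filled points, and the points at 1.80 and 1.48 are open.

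Among the AMPK subunits PRKAA1, the catalytic α1 subunit, was read by 5 probe sets that did not agree. The brightest (225984_at) read 747 on the labelled si-PGR array and 1208 on the labelled control array, a difference of -0.69 or 1.62-fold lower. The second (209799_at) read 446 on the labelled si-PGR array and 608 on the labelled control array, a difference of -0.45. The third (225985_at) ran the other way, with 370 on the labelled si-PGR array and 280 on the labelled control array, a difference of 0.40.

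The fourth probe set of PRKAA1 lay at the floor, with 98.2 on the labelled si-PGR array and 101 on the labelled control array, a difference of -0.04. The fifth, at 17.7 on the labelled si-PGR array and 5.70 on the labelled control array, lay below it and gave 1.48. The 4 probe sets past the floor spanned 1.09 on the log2 scale, and 7.45% of 577 genes with 4 such probe sets had a range at least as wide. Their mean was -0.20, under 1.5-fold, and the mean of all 5 was 0.14, with the opposite sign. The -0.69 of the brightest is therefore a reading of that probe set rather than of PRKAA1 as a whole. In the middle of 3 equal parts by signal, where its brightest probe set lies, 0.89% of 3708 genes were at least 1.5-fold lower. Which transcript ends the probe sets read was not analysed here.

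PRKAB1, the β1 subunit, read 787 on the labelled si-PGR array and 716 on the labelled control array with its brighter probe set, and 681 on the labelled si-PGR array and 561 on the labelled control array with the other. The differences were 0.14 and 0.28, of the same sign, and the dimmer probe set is marked for shared sequence. PRKAG1, the γ1 subunit that binds AMP, read 2225 on the labelled si-PGR array and 1834 on the labelled control array, a difference of 0.28 from a single probe set. Both subunits were slightly higher on the labelled si-PGR array, within 1.5-fold.

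**Figure D3:**
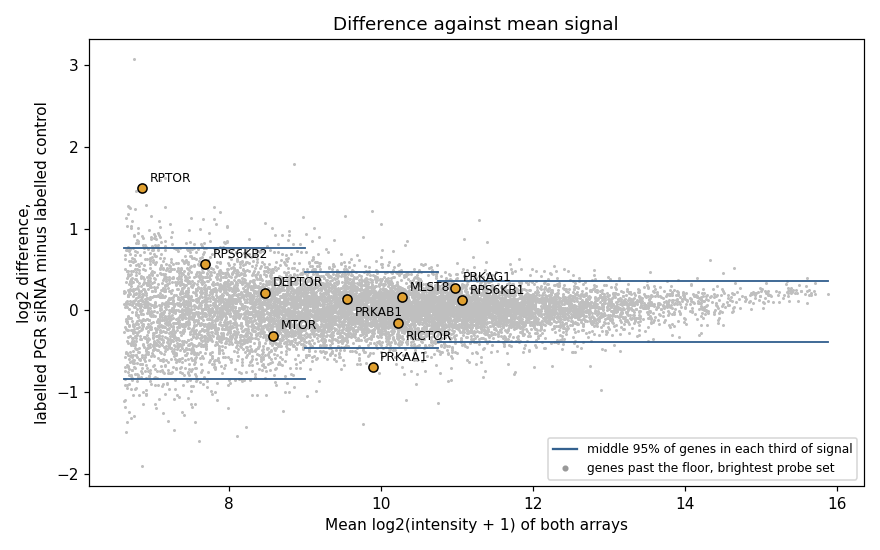
Log2 difference (labelled si-PGR array minus labelled control array) against mean log2 signal, with a grey point per gene past the floor, the 10 genes in orange and the middle 95% of genes at each level of signal (genes past the floor split into 3 equal parts) as blue lines. PRKAA1 at -0.69 and RPTOR, drawn at its measured 1.49 against a value below the floor, lie outside the lines and the other 8 inside.

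Set against genes of like signal, 8 of the 10 genes lay within the middle 95% of differences for their level of signal. In the lowest of the 3 parts, which holds MTOR, RPTOR, DEPTOR and RPS6KB2, that interval ran from -0.84 to 0.77. In the middle part, with RICTOR, MLST8, PRKAA1 and PRKAB1, it ran from -0.47 to 0.47, and in the highest, with RPS6KB1 and PRKAG1, from -0.38 to 0.36. PRKAA1, by its brightest probe set, lay outside. RPTOR did too by its measured value, but it was taken against a value below the floor and reached the floor through the labelled si-PGR array alone, so nothing is read from its place. These intervals describe the scatter of genes between the 2 arrays and not the error between cultures.

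Agreement between probe sets could be judged for 4 of the 10 genes, those with more than 1 probe set past the floor. RICTOR and PRKAB1 had 1 sign throughout, PRKAB1 with a probe set marked for shared sequence, and RPS6KB1 and PRKAA1 did not. Over all 5395 such genes 44.6% had 1 sign throughout. RPTOR, MLST8, RPS6KB2 and PRKAG1 have a single probe set each, and MTOR and DEPTOR have a second one only below the floor, so both genes with a difference near or past 1.5-fold in the higher direction, RPTOR and RPS6KB2, rest on 1 probe set.

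**Figure D4:**
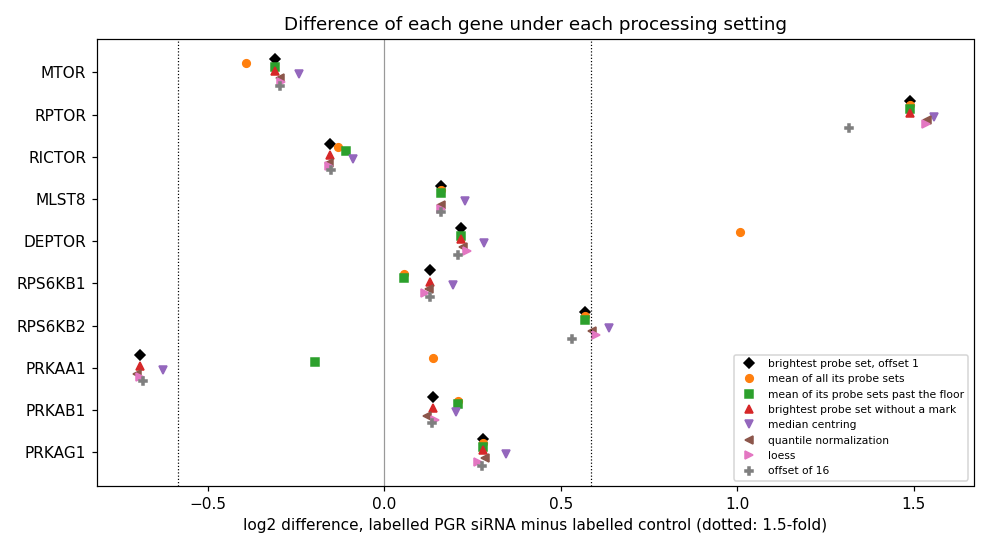
Log2 difference (labelled si-PGR array minus labelled control array) of each gene under each processing setting, with 1 marker per setting and 1.5-fold as dotted lines. Most genes stay together across settings, whereas PRKAA1 runs from -0.70 to 0.14 and DEPTOR from 0.21 to 1.01 with the reading of their probe sets.

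The rest of the pathway was taken from a list of 73 genes, of which 69 had a probe set with 1 symbol and 65 reached the floor. Of these 1 was higher and 0 were lower by at least 1.5-fold on the labelled si-PGR array, against the 2.45% and 3.03% of all genes given above, and their median was 0.05. NPRL3, a subunit of GATOR1, which restrains mTORC1 when amino acids are scarce, was at the upper end. It read 902 on the labelled si-PGR array and 497 on the labelled control array, a difference of 0.86. All 4 probe sets of NPRL3 are marked for shared sequence, and the others past the floor gave 0.16 and 0.20. ULK1, the kinase that starts autophagy and is held back by mTORC1, was at the lower end, with 258 on the labelled si-PGR array and 354 on the labelled control array, a difference of -0.45 from 1 probe set.

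Other subunits of the same complexes, and the assembly factor TELO2, were named after their values were seen. The α2 subunit gene PRKAA2 was below the floor on both arrays with all 5 probe sets, so α1 is the catalytic AMPK subunit with usable signal here. PRKAB2, the β2 subunit, differed by -0.01, -0.13 and -0.18 in its 3 probe sets, and PRKAG2, the γ2 subunit, by 0.10, -0.37 and -0.12 in the 3 past the floor. TELO2, which helps assemble mTOR and related kinases, was higher with both probe sets, at 0.51 and 0.72. It read 250 with its brightest probe set on the labelled si-PGR array and 175 on the labelled control array. The probe set at 0.72 is marked for shared sequence. The brightest lies in the lowest of 3 equal parts by signal, where 6.26% of genes were at least 1.5-fold higher. Of the 8 other complex subunits and assembly factors past the floor 0 were at least 1.5-fold apart by their brightest probe set.

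Upstream of mTORC1, RHEB, the GTPase that switches the kinase on, differed by -0.09 with its brightest probe set, at 10400.2 on the labelled si-PGR array and 11058 on the labelled control array. That probe set is marked for shared sequence. The 6 probe sets of RHEB past the floor ranged from -1.75 to 0.20, with 5 below 0 and 1 above. The lowest was under the floor on the labelled si-PGR array, where it read 53.6 against 183 on the labelled control array and was at least 1.86-fold lower. Without it the range was -0.56 to 0.20. The 12 genes of the Rag GTPases, Ragulator and their partners, which bring mTORC1 to the lysosome, had a median of 0.08, with 8 above 0. The 14 genes of GATOR, KICSTOR and the amino acid sensors had a median of -0.03, with 7 above 0. With median centring the median of all genes was 0.09 in place of 0.02, a shift large enough to turn the sign of that -0.03. Neither group held a gene at least 1.5-fold apart by its brightest probe set other than NPRL3. Dimmer probe sets past the floor gave 0.61 for FNIP1 and -0.61 for FNIP2, both named after their values were seen.

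Downstream, the 13 mTORC1 and S6 kinase substrates past the floor had a median of 0.07, with 9 above 0. By their brightest probe set 0 were at least 1.5-fold apart. Dimmer probe sets past the floor gave 0.76 for ATG13 and -0.68 for EIF4EBP2, the latter under the floor on the labelled si-PGR array. RPS6, the ribosomal protein that S6 kinases phosphorylate, differed by 0.23, 0.25 and 0.28 in its 3 bright probe sets. Loess gave 0.15, 0.17 and 0.20, and median centring and the offset of 16 also kept all 3 above 0. Quantile normalization gave -0.01, -0.0043 and 0.06. The reading thus depends on the scaling, and no direction is read for RPS6. LPIN1, a phosphatidate phosphatase, differed by 0.39, 0.41 and 0.43 in its 3 probe sets. The 4 mTORC2 substrates had a median of -0.10 and the 6 AMPK substrates a median of 0.15, none past 1.5-fold by the brightest probe set. A dimmer probe set of the AMPK substrate TBC1D1, past the floor, gave -0.63. The genes named in this paragraph were named after their values were seen.

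**Figure D5:**
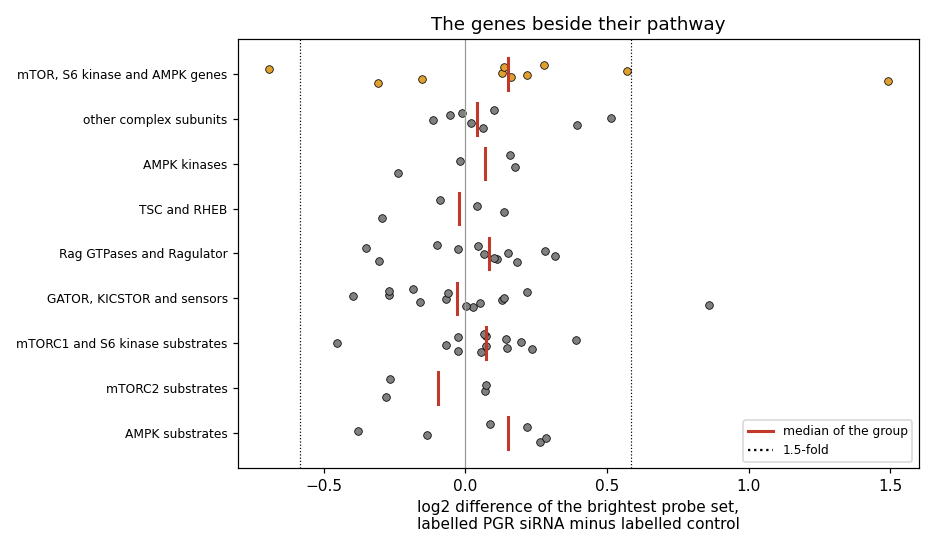
Log2 difference (labelled si-PGR array minus labelled control array) of the brightest probe set of each gene past the floor, for the 10 genes in orange and each group of the pathway in grey, with the group median as a red bar and 1.5-fold as dotted lines. RPTOR at its measured 1.49, against a value below the floor, PRKAA1 at -0.69 and NPRL3 at 0.86 are the genes past 1.5-fold.

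Because PGR is a transcription factor, the promoters of the 10 genes were searched for its binding letters, as a description only. RefSeq sequences of GRCh38.p14 from 250 bases before to 50 after the gene start were matched for 8 of the 10 genes. The letters TGTTCT, the half-site of a progesterone response element, searched on both strands with no other motif, were in 1 of the 8 and in 14.8% of all promoters. That promoter is PRKAG1, shown because it is the only one with a match, with the half-site in capitals in its reverse complement, as it reads on the gene's strand, and its first base 216 bases before the gene start, at chr12:49018967-49019012 on the minus strand.
PRKAG1: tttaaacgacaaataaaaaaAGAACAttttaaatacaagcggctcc
PRKAG1 differed by 0.28, within 1.5-fold, and RPTOR and PRKAA1 held no such letters in these windows.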

How the data were processed

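Total RNA of AsPC-1 cells was labelled as biotin cRNA and hybridised to 3' expression arrays, 1 array per condition. The deposited values are linear intensities, 1 per probe set and array, in 2 columns mapped by their labels. The summary algorithm, background correction and scaling are not given in the sources used here. Means without 2% of the values at each end were 499.9 on both arrays, which shows that the arrays were brought to 1 overall level before deposition.

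Of the probe sets 41097 had 1 gene symbol in the platform annotation and were used, whereas 1801 with several and 11777 with none were not. For 41043 of them the symbol was renewed by gene identifier from RefSeq of GRCh38.p14. Values were compared as log2(intensity + 1), labelled PGR siRNA minus labelled control. The brightest probe set by mean signal stood for a gene, which was counted where the mean of its log2 values reached the signal floor of 97.9, the median intensity of all named probe sets. Folds of 1.5 and 2 served as rules of size. A single array per condition allows no test and no standard error, and this number of arrays limits precision.

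Alternatives were other readings of a gene, other scalings (loess with a span of 0.7, quantile normalization, median centring), other signal filters, an offset of 16 and 2-fold. With no replicates, the spread against which a single gene's shift was judged was the SD between probe sets of 1 gene, 0.29 over 5395 genes. The members and gene lists were chosen with earlier results of these data known. Named genes were all members, PGR, and the pathway genes at either end or past 1.5-fold; other pathway genes were named after their values were seen. The calculation was run on the control values with known folds put in and no noise, which checks the arithmetic only. Promoter sequences were taken from RefSeq, and 8 of the 10 genes were matched. Python 3.11.15, numpy 2.4.6, pandas 2.3.3, statsmodels 0.14.6 and matplotlib 3.10.9 were used.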

Additional observations from a re-analysis of the deposited data

How the results depend on the processing

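Of 68 single-gene values under an alternative reading, scaling or offset, 65 moved by less than the SD between probe sets of 1 gene. Many of the 68 could not move. A gene with 1 probe set has the same value by either mean. The brightest probe set was already unmarked in every gene that has an unmarked one. Median centring shifted all genes by the same amount, which is under that SD. The 65 is therefore no measure of how firm the values are. PRKAA1 turned to 0.14 with the mean of all its probe sets and DEPTOR moved to 1.01, since both means take in dim probe sets, and PRKAA1 was -0.20 with the mean of those past the floor. RPTOR ran from 1.32 to 1.56, measured against a value below the floor, so that only its bound of at least 1.98-fold is a size. The count of the 10 genes at least 1.5-fold higher was 2 in place of 1 with the mean of all their probe sets (RPTOR and DEPTOR), and 2 with median centring, quantile normalization and loess, which take RPS6KB2 past 1.5-fold. It was 0 with a filter on both values or on the 75th percentile, which remove RPTOR. The count lower was 0 in place of 1 with either mean of probe sets and at 2-fold. Over all genes past the floor the shares were 3.30% higher and 2.25% lower with median centring, against 2.45% and 3.03%. They were 2.66% and 2.69% with quantile normalization, 2.72% and 2.62% with loess, and 0.351% and 0.423% at 2-fold. Probe sets of the 10 genes at least 1.5-fold higher numbered 2 with median centring, quantile normalization and loess, 3 with no filter and 0 with those 2 filters, and those lower numbered 0 at 2-fold. Genes whose probe sets agree in sign numbered 4 with no filter and 0 with that on the 75th percentile. Pathway genes at least 1.5-fold higher numbered 3 with the mean of all their probe sets, 2 with no filter, and 0 at 2-fold or without marked probe sets, which remove NPRL3. Those lower numbered 5 with that mean and 3 with no filter, and the pathway median was 0.12 with median centring. Counts with no filter or with the mean of all probe sets take in probe sets below the floor. Of all such probe sets 28.6% were at least 1.5-fold higher and 33.7% lower, so nothing is read from those counts. Median centring also turned the share of higher genes among all genes past 1.5-fold to 59.5%, against 44.7%. Low signal on the labelled control array and a single probe set limit RPTOR, and with 1 array per condition no alternative shows the error between cultures. No paired analysis was possible because each condition has 1 array.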
